A study of Danio rerio with 9 samples.

Results

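The control transcriptome of BRAF-driven zebrafish melanoma was described from the 4 tumours whose labels carry EGFP_oe, numbered R162 to R165, out of 9 tumours in the series. All 4 arose in fish that carried mitfa:BRAFV600E and were Na-/-, the nacre background that lacks working Mitfa and therefore melanocytes. Embryos were injected at the zygote stage with 20 ng/µL of MiniCoopR, a vector that returns mitfa, here together with EGFP, and with tol2 RNA to integrate it. Vector injection makes mosaic animals, and the mitfa promoter limits BRAF V600E to the cells that use it. Raised lesions were dissected from fish kept at 20 per tank, and the labels give the CDK13 status of the EGFP tumours as wild type. The other 5 tumours, R157 to R161, arose in fish of the same genotype after injection of MiniCoopR with mutant CDK13 (R860Q). They were used only to set the scale of the counts and, at the end, to measure the spread of the same genes in other tumours. The labels used here state neither age nor sex, nor whether 2 tumours could share a fish.

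Melanocytes descend from the neural crest under the control of Mitfa, which switches on the enzymes and structural proteins of the melanosome. BRAF V600E drives the MAPK pathway without an upstream signal. A bulk tumour sample also holds RNA of its stroma, blood, immune cells and overlying skin or underlying muscle.

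Each tumour gave 1 library of total RNA depleted of ribosomal RNA, primed at random and sequenced as 100 bp pairs. Random priming of total RNA keeps transcripts without a poly(A) tail, so small structured RNAs are part of the counts. The totals were 6317580 counts in R162, 11206732 in R163, 5518472 in R164 and 15120176 in R165. Of 30649 named rows, 24827 had a read in any EGFP tumour and 17881 had a read in all 4. Levels are given as counts per 1000000 of the TMM-scaled library (CPM), and 13142 rows reached 1 CPM in all 4 tumours, 17875 in any and 2012 in exactly 1. No transcript length was used, so ranks between genes are ranks of reads and not of molecules.

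R162 stood apart in how its reads were divided. In R162, 50% of all counts fell on 21 rows, against 233 in R164 and 257 in R165, with R163 between R162 and R164. Its TMM factor was 0.650, while the other 3 lay between 1.09 and 1.25. The labels hold no measure of RNA quality, and its part in this difference was not tested. Across the 11474 genes with a mean of at least 5 CPM, Pearson's r of log2 CPM between pairs had a median of 0.793. The least alike pair was R162 with R165 (0.661), and the most alike was R163 with R165 (0.819). R162 was not unlike every tumour by this measure, as it had 0.814 with R164 but 0.687 with R163. R162 with R164 also had the fewest genes over 4-fold of all pairs (634, or 5.53%). These r describe genes within libraries, and genes are not independent replicates.

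The most read row was 7SL RNA (listed as Metazoa_SRP), the RNA of the signal recognition particle that guides secreted proteins to the endoplasmic reticulum. It took 28.2% of the counts in R162, 26.5% in R163, 16.3% in R164 and 23.2% in R165, or 23.6% ± 5.27 (SD, n = 4). All rows of small noncoding RNA together took 39.8%, 30.6%, 22.3% and 25.9% in the same order, so R162 was highest and R164 lowest. Next in reads came 7SK RNA (rn7sk), which holds the elongation factor P-TEFb inactive, at 47569 CPM in R162, 13807 in R163, 20327 in R164 and 8059 in R165. CR318588.1, a clone row matched to no gene name, lay above RNase MRP RNA in mean level (12834 and 11702 CPM). The 4 rows of that clone took 3.09%, 0.343%, 1.24% and 0.859% of the counts in R162 to R165. The RNA of RNase MRP, an enzyme that processes ribosomal RNA, had 33194, 2341, 8739 and 2534 CPM in R162 to R165. The RNAs 7SL, 7SK and RNase MRP are far shorter than most mRNAs, and reads show nothing of their molar level against mRNA.

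Small noncoding rows varied more than the classes of longer RNA. SNORA73, a small nucleolar RNA, had 33401 CPM in R162, 4438 in R163, 5925 in R164 and 2341 in R165. U2, the spliceosomal RNA that pairs with the branch point, had 21851, 3112, 6879 and 3064 CPM. R162 was the highest tumour for both, and R164 the next. Of 49 small noncoding rows with a mean of at least 5 CPM, 47 differed by more than 4-fold between the highest and lowest tumour, or 95.9%, where the share over all 11474 genes was 22.1%. The 268 rows of microRNA precursors held almost no reads, at most 1.78e-05% of the counts, and the 13 mitochondrially encoded rows (mt-nd1 and others) were listed at 0 in all 4 tumours. A listing at 0 for genes that every cell uses is a feature of these tables and not a level.

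**Figure D1:**
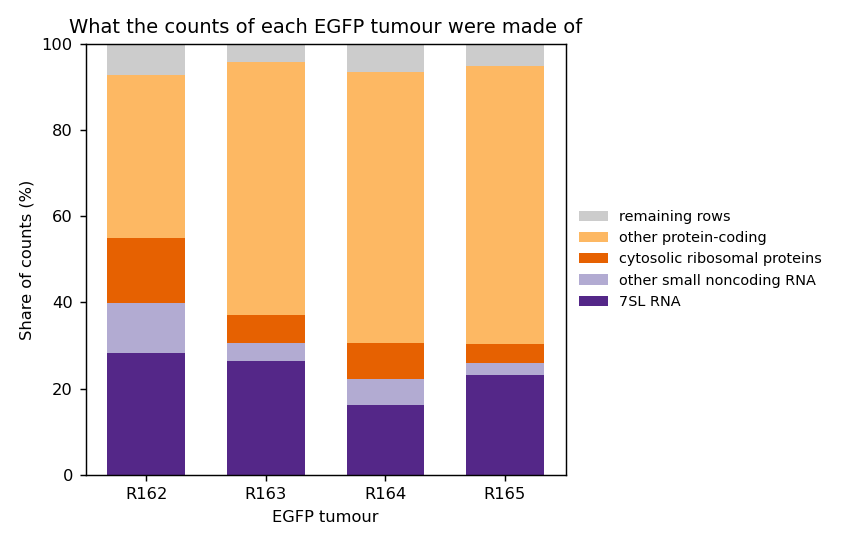
Share of all counts (%, y axis) in each EGFP tumour (x axis), split into 7SL RNA, other small noncoding RNA, cytosolic ribosomal proteins, other protein-coding rows and the remaining rows. Small noncoding RNA and ribosomal proteins together filled more of R162, where they took 39.8% and 15.3%, than of any other tumour.

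Among protein-coding rows the translation machinery led. First was rplp0, the stalk protein of the large ribosomal subunit, with 22918 CPM in R162, 4092 in R163, 5611 in R164 and 2004 in R165. Then came eef1a1l2, an elongation factor that brings aminoacyl-tRNA to the ribosome, with 9119, 9168, 5020 and 8059 CPM, and RPL41 with 19849, 4379, 2784 and 2250 CPM. R162 was far above the others for rplp0 and RPL41, whereas eef1a1l2 was more even, with 7842 ± 1949 CPM (SD, n = 4). The chaperones hspa8 (4472 ± 1301 CPM) and hsp90ab1 (3387 ± 592 CPM), the giant scaffold protein gene ahnak (3941 ± 1434 CPM) and the actin gene actb1 (3826 ± 1327 CPM) followed, with SDs of log2 CPM from 0.26 to 0.60. For ahnak and actb1 the order was turned round, and R162 was the lowest of the 4 tumours, at 2093 and 2609 CPM.

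A pair of melanosome genes stood among the 20 most read protein-coding rows. tyrp1b, a tyrosinase-related melanin enzyme, ranked 10 with 2198 CPM in R162, 2293 in R163, 2503 in R164 and 5813 in R165. pmela, which builds the fibrils of the melanosome, ranked 20 with 1955, 2270, 1590 and 3426 CPM. R165 was highest for both. KRT18_(1_of_many), a row for a simple-epithelium keratin, had 1422, 3708, 2356 and 2546 CPM in R162 to R165. Of the 100 most read protein-coding rows of each tumour, 49 were shared by all 4, and 174 rows entered the 100 of at least 1 tumour.

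Genes ranged from nearly constant to high in some tumours and at 0 reads in others. The SD of log2 CPM over the 4 tumours had a median of 0.54, with quartiles of 0.35 and 0.84. The highest tumour exceeded the lowest by a median of 2.29-fold. By this measure 2534 genes (22.1%) differed by more than 4-fold, 522 by more than 16-fold and 150 by more than 64-fold, while 1551 genes (13.5%) differed by less than 1.5-fold. Counting error alone would give a median SD of 0.129. Among the genes that differed by more than 4-fold, the highest or the lowest tumour was R162 in 66.8%, R163 in 52.6%, R164 in 27.4% and R165 in 53.2%. R165 was the highest for 800 of them and R162 for 791. At least 4-fold above the mean of the other 3 tumours stood 426 genes (3.71%) in R162, 287 (2.5%) in R163, 160 (1.39%) in R164 and 415 (3.62%) in R165. As far below them stood 454 genes (3.96%) in R162, 348 (3.03%) in R163, 189 (1.65%) in R164 and 211 (1.84%) in R165. Without R162, 1492 genes differed by more than 4-fold among the 3 tumours left, and 3564 by less than 1.5-fold. The median SD was then 0.44. Leaving out R163, R164 or R165 gave 1774, 2289 and 1756 genes over 4-fold and 2861, 2542 and 2717 under 1.5-fold. The median SDs were then 0.50, 0.56 and 0.52. Fewer samples narrow the range by construction.

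Spread was largest among the most read genes but did not rise steadily with level. The 5795 genes of 5 to 20 CPM had a median SD of 0.55. Genes of 20 to 100 CPM had a median SD of 0.50 and those of 100 to 1000 CPM one of 0.61. The 91 genes of 1000 CPM and over had a median SD of 1.12, and 69.2% of them differed by more than 4-fold. Ribosomal protein genes, at a median level of 1069 CPM, had a median SD of 1.16, and of 0.49 without R162. How far they and R162 set the value of the top band was not tested. Protein-coding genes had a median SD of 0.53 (10470 genes), and the 22 long noncoding RNA genes recognised by symbol had one of 0.93.

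**Figure D2:**
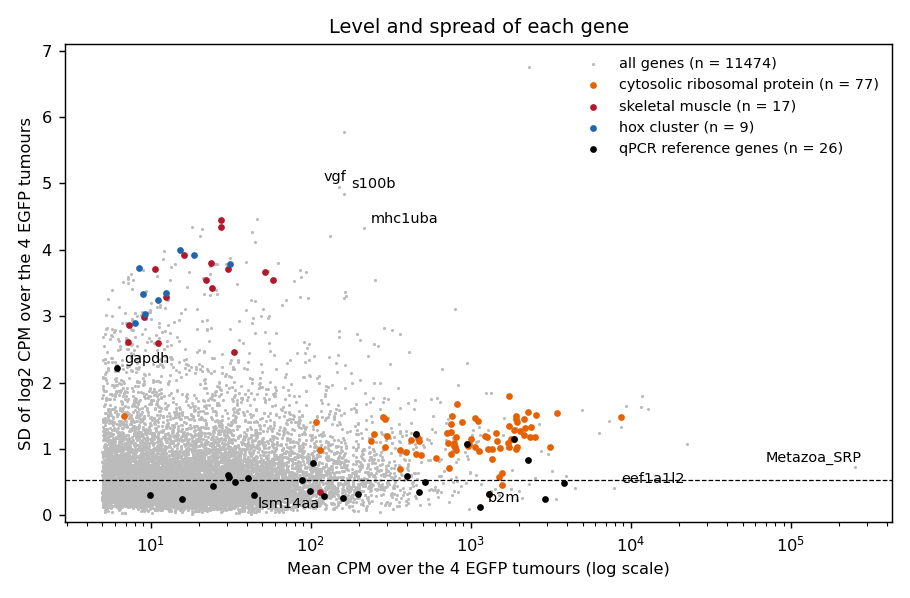
Each point is a gene, with its mean CPM over the 4 EGFP tumours on a log x axis and its SD of log2 CPM on the y axis; the dashed line is the median SD of 0.54. Ribosomal protein genes form a band near an SD of 1.16 at high level, muscle and hox genes lie at an SD above 2 apart from the muscle-list gene eno3, and most genes used as qPCR references lie near or below the line.

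The ribosomal protein genes moved as a block. Of 77 genes with a mean of at least 5 CPM, 70 (90.9%) differed by more than 4-fold, against 22.1% of all genes, and 73 were highest in R162. Their counts made up 15.3% of all counts in R162, 6.62% in R163, 8.40% in R164 and 4.43% in R165. Outside the small noncoding rows these shares were 25.4%, 9.54%, 10.8% and 5.99%. In R162 the genes stood a median of 4.31-fold above the mean of the other 3 tumours, while the median of all genes was -0.08 on the log2 scale. rps20 had the largest spread, with 5479 CPM in R162, 503 in R163, 616 in R164 and 337 in R165. Without R162, 3 of the 77 genes differed by more than 4-fold and their median SD was 0.49, against 1.16 with it. tpt1, a growth-related gene whose mRNA is controlled like those of ribosomal proteins, did the same with 14708, 1444, 2302 and 1487 CPM. The small noncoding RNAs above, muscle and blood markers below and the TMM factor all set R162 apart too, and their part in this block was not tested.

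Of 26 measured genes customarily used as qPCR references, 3 differed by less than 1.5-fold, where 13.5% of all genes did, and 4 (15.4%) by more than 4-fold, where 22.1% did. Their shares were thus near those of all genes. Their median SD was 0.49, and 0.29 without R162. The actin gene actb2 had 2471 CPM in R162, 3641 in R163, 2813 in R164 and 2639 in R165. mob4, a kinase adaptor, had 13.9, 19.9, 13.7 and 15.5 CPM, and tbp, the TATA-binding protein, had 7.83, 13.2, 9.02 and 9.46 CPM. actb2, mob4 and tbp each had an SD of log2 CPM of at most 0.31, but tbp differed by more than 1.5-fold and is not among the genes under that bound. The 4 wide ones were the ribosomal genes rpl13a (2170, 693, 542 and 394 CPM), rps18 (1081, 360, 228 and 151 CPM) and rpl7 (4578, 1046, 1060 and 763 CPM), and gapdh. gapdh, a glycolytic enzyme, was a low row here, with 21.8 CPM in R162, 1.24 in R163, 0.437 in R164 and 1.42 in R165. With R162 left out, 25 genes of this list had a mean of at least 5 CPM. gapdh, at most 1.42 CPM in R163 to R165, thus passed that filter only through R162, which favours a large fold.

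The 100 genes with the narrowest spreads had a median level of 25.1 CPM, near that of genes at large. The median was 19.7 CPM over all 11474 genes and 21.1 CPM over the 100 most variable. lsm14aa, an RNA-binding protein of processing bodies, had 41.6 CPM in R162, 41.5 in R163, 42.8 in R164 and 42.9 in R165, the smallest SD of all genes (0.0257). mavs, the mitochondrial adaptor of RNA sensing, had 35.2, 36.9, 35.2 and 35.7 CPM. birc2, an inhibitor of apoptosis, had 60.2, 57.4, 62.1 and 60.8 CPM. Others among the 20 named were dcaf8, a substrate receptor of a ubiquitin ligase, rnmt, the mRNA cap methyltransferase, mta2, a subunit of the NuRD complex, and smndc1, a splicing factor. Their SD was at most 0.0588. For 77 of the 100 most stable genes the SD was below the SD that counting alone would give, which held for 2.33% of all genes, so order within this set is not meaningful at 4 tumours. The 100th gene had an SD of 0.0970 and the next one 0.0971. With libraries scaled by total count, 0 of these 100 genes remained among the 100 most stable, against 90 with DESeq2's size factors.

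Among the 100 most variable genes, 81 were protein-coding, where 10470 of all 11474 genes were. Of the 100, 45 had 0 reads in at least 1 tumour. That count was not made over all genes, so the 45 is not read as a result. The 100 held 11 of the 17 muscle, 7 of the 9 hox, 6 of the 21 antigen presentation and 2 of the 9 nerve and glia genes with a mean of at least 5 CPM. The 100 were drawn from 11474 genes with that mean. Without R162 only 2 muscle genes had that mean, and without R163 only 4 hox genes did. Most muscle and hox genes thus passed through the tumour where they were high, which favours a large SD. Their counts here are therefore not read as a result. The highest tumour was R162 for 39 of the 100, R163 for 20, R164 for 15 and R165 for 26. In bulk RNA, fewer cells of a type and less RNA per cell cannot be told apart. A count of 0 allows up to 0.734 CPM in R162, 0.247 in R163, 0.437 in R164 and 0.164 in R165 (3 counts, counting error only). The SD of such genes depends on the prior count of 2, and no fold is given for them. The 100th gene and the next one both had an SD of 3.04. The row with the largest SD was CR318588.3, a clone name with no match in the gene tables, at 9230 CPM in R162, 73.4 in R163, 1.16 in R164 and 0.0547 in R165.

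s100b, a calcium-binding protein of glia and a marker of human melanoma, had 646 CPM in R162 and 0.165, 1.02 and 1.42 CPM in R163, R164 and R165. vgf, a precursor of neuropeptides, had 107 CPM in R162 and 491 in R164, and 0.165 in R163 and 1.26 in R165. Each gene was thus high in 1 or 2 tumours and at most 1.42 CPM in the rest. pou3f1, a POU transcription factor of Schwann cells, had 12.0 CPM in R162, 71.6 in R164 and 0 reads in R163 and R165. ntrk3a, a neurotrophin receptor, had 0 reads in R162 against 45.5, 41.0 and 92.5 CPM in R163 to R165. The tumours without one of these genes were thus not the same. dlx1a, a homeobox gene, had 25.8 CPM in R163 and 30.6 in R164, and 0 reads in R162 and 0.328 CPM in R165. aqp3b, a water and glycerol channel, had 485 CPM in R163, 32.0 in R165, 8.29 in R164 and 0.245 in R162. The summed level of 28 nerve and glia markers was 878 CPM in R162, 202 in R163, 322 in R164 and 293 in R165. Such a sum can rest on 1 gene, and s100b alone had 646 CPM in R162. The sum therefore does not show that these markers as a class were high in R162.

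**Figure D3:**
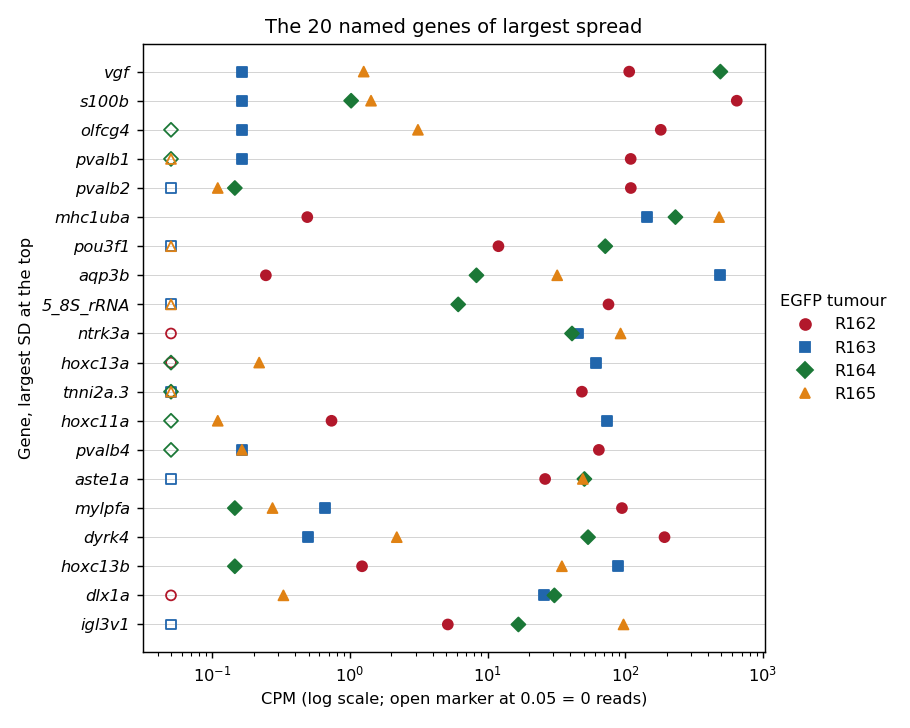
CPM on a log x axis in each EGFP tumour (colours and symbols) for the 20 named genes with the largest SD of log2 CPM, largest at the top; open markers at 0.05 stand for 0 reads. Muscle genes (pvalb1, pvalb2, pvalb4, mylpfa, tnni2a.3) and s100b are high in R162 alone, and hoxc11a and hoxc13a in R163 alone.

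Skeletal muscle transcripts were found at level in R162. Of the 49 muscle rows, 17 had a mean of at least 5 CPM, and without R162 only 2 did, so most of them passed through that tumour alone and no count over those that passed is read as a result. ckma, muscle creatine kinase, had 226 CPM in R162, 1.57 in R163, 0.728 in R164 and 5.69 in R165. pvalb2, the calcium buffer parvalbumin, had 110 CPM in R162, 0 reads in R163, 0.146 CPM in R164 and 0.109 in R165. The summed level of the 49 muscle rows was 1766 CPM in R162 and 129, 124 and 138 CPM in R163 to R165. Of these rows, 39 reached 1 CPM in R162, and 7, 5 and 7 did in R163 to R165. The list includes eno3, which had a mean of 115 CPM over the 4 tumours. The sums in R163 to R165 may therefore rest largely on that gene, and its part was not tested. Parvalbumin genes are near copies of each other, and the split of reads between them is uncertain.

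Blood markers were highest in R162 and lowest in R165. hbba1, an adult beta globin, had 2445 CPM in R162, 501 in R163, 318 in R164 and 91.0 in R165. hbaa1, an adult alpha globin, had 738, 211, 145 and 41.4 CPM, and cahz, the carbonic anhydrase of red cells, had 109, 29.1, 27.8 and 8.31 CPM. Of 11 erythrocyte genes, 10 (90.9%) differed by more than 4-fold, against 22.1% of all genes. R162 was highest and R165 lowest in the summed level (3585 and 216 CPM). Without R162, 10 genes of this list had a mean of at least 5 CPM. Not all of the 11 thus passed that filter without R162, which favours a large fold.

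Hox genes, which record position along the body axis, differed widely between tumours, although R165 shared hoxc13b with R163 at a lower level. The summed level of the 48 hox rows was 138 CPM in R162, 440 in R163, 4.22 in R164 and 61.2 in R165. A mean of at least 5 CPM was reached by 9 hox genes, and by 4 without R163, so most passed through the tumour where they were high. R163 held the posterior hoxc genes: hoxc13b had 1.22 CPM in R162, 89.0 in R163, 0.146 in R164 and 34.7 in R165, and hoxc11a had 0.734, 73.7, 0 and 0.109 CPM. Summed over the 7 rows from hoxc10 to hoxc13, the level was 3.18 CPM in R162, 356 in R163, 0.582 in R164 and 46.6 in R165. R162 instead held the middle hoxb genes, and the 7 rows from hoxb3 to hoxb9 summed to 84.9 CPM there, 1.40 in R163, 0 in R164 and 0.437 in R165. These stretches of the clusters were chosen after their values were seen. No hox row reached 1 CPM in R164.

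Antigen presentation genes included both even and very uneven ones. b2m, the invariant chain of MHC class I, had 1102 CPM in R162, 1091 in R163, 1305 in R164 and 1098 in R165. In contrast mhc1uba, a class I heavy chain, had 0.489 CPM in R162 against 145, 232 and 481 CPM in R163 to R165. mhc2dab, a class II beta chain, had 2.18 CPM in R164 against 259, 112 and 635 CPM in R162, R163 and R165. Each chain was thus low in a different tumour. psmb8a and psmb12, subunits of the immunoproteasome, and tap2a, a peptide transporter, had 0 reads in R165. In R162 to R164 they had 10.8, 5.36 and 23.9 CPM (psmb8a), 19.3, 7.17 and 17.3 CPM (psmb12) and 24.0, 11.0 and 32.9 CPM (tap2a). Of 21 genes of the list, 11 (52.4%) differed by more than 4-fold, against 22.1% of all genes. Without R164, or without R165, 20 genes of the list had a mean of at least 5 CPM. Not all of the 21 thus passed that filter without those tumours, which favours a large fold. Class I and class II genes have near copies in the genome, and the division of reads among them is uncertain.

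The tissue is labelled as melanoma, and its pigment genes were read in all 4 tumours. The 24 pigment rows summed to 8602 CPM in R162, 8720 in R163, 6986 in R164 and 14348 in R165. Of 21 with a mean of at least 5 CPM, 9 (42.9%) differed by more than 4-fold and 0 by less than 1.5-fold, against 22.1% and 13.5% of all genes. tyr, tyrosinase, had 732, 1047, 198 and 1115 CPM, lowest in R164. gpr143, a receptor of the melanosome membrane, had 7.09 CPM in R162, 223 in R163, 42.8 in R164 and 245 in R165. R162 thus had tyrp1b at 2198 CPM beside little gpr143.

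Of 24 neural crest rows, 18 reached 1 CPM in R162, 16 in R163, 20 in R164 and 22 in R165. sox10, the crest factor upstream of mitfa, had 300 CPM in R162, 782 in R163, 348 in R164 and 337 in R165. crestin, a crest transcript that returns in zebrafish melanoma, had 595, 423, 49.8 and 78.8 CPM, higher in R162 and R163 than in R164 and R165. tfap2a, a crest AP-2 factor, had 69.9, 377, 73.1 and 123 CPM, and dlx2a had 1.47 CPM in R162 against 44.9, 49.3 and 31.9 CPM in R163 to R165. Of 15 genes of the list, 9 (60.0%) differed by more than 4-fold, against 22.1% of all genes. Without R164, 13 genes of the list had a mean of at least 5 CPM, and 14 did without R163 or without R165. Some of the 15 thus passed that filter only through a tumour where they were high, which favours a large fold.

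Of 7 genotype, vector and related genes with a mean of at least 5 CPM, 1 (14.3%) differed by more than 4-fold, against 22.1% of all genes. The median SD of this list was 0.51, beside 0.54 for all genes. Without R163, or without R165, that median was 0.32. mitfa, which the vector supplies, had 147 CPM in R162, 178 in R163, 228 in R164 and 98.5 in R165. mdm2, a ubiquitin ligase, had 13.5, 42.6, 26.3 and 51.4 CPM, and cdkn1a, an inhibitor of cyclin-dependent kinases, had 13.2, 24.8, 48.9 and 8.47 CPM. These 2 genes did not share an order of tumours. cdk13 had 18.6, 41.7, 23.4 and 20.6 CPM, and its partner cyclin K, ccnk, had 5.87, 5.36, 5.82 and 4.37 CPM. The row for human CDK13, hCDK13, held 2, 1, 0 and 5 reads. No row named EGFP was found in the tables used here.

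Targets and feedback inhibitors of MAPK signalling were read in all tumours. dusp6, the ERK phosphatase, had 276 CPM in R162, 973 in R163, 464 in R164 and 888 in R165. spry4, a Sprouty inhibitor, had 107, 388, 243 and 176 CPM, and dusp4 had 126, 264, 155 and 191 CPM. R162 was lowest and R163 highest for all 3. phlda1 was instead highest in R162 and lowest in R165, with 194 CPM in R162, 65.9 in R163, 68.1 in R164 and 20.6 in R165. Of 16 genes of the list, 7 (43.8%) differed by more than 4-fold, against 22.1% of all genes.

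Skin and stroma markers were highest in R165. Of 22 keratinocyte genes, 15 stood at least 4-fold above the other 3 tumours in R165, where 3.62% of all genes did, and 14 stood as far below them in R162, where 3.96% did. Without R165, 19 genes of this list had a mean of at least 5 CPM. Some of the 22 thus passed that filter only through R165, which favours a high count there. krt17, a keratin of stressed epidermis in mammals, had 26.2 CPM in R162, 233 in R163, 60.8 in R164 and 1322 in R165. krt8, a simple-epithelium keratin, was even, with 1361, 2332, 1969 and 2294 CPM. col10a1a, a collagen of cartilage and bone, had 93.7 CPM in R165 and at most 0.489 CPM in the other 3. Of 32 matrix genes, 25 (78.1%) differed by more than 4-fold, against 22.1% of all genes. Their median SD of 1.31 was 0.76 without R165, where 30 genes of the list had a mean of at least 5 CPM. Some of the 32 thus passed that filter only through R165, which favours a large fold. Within that list col4a1, a basement membrane collagen, was instead highest in R163 (62.9, 789, 171 and 598 CPM in R162 to R165).

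Immune cell markers, summed by list, were lowest in R163. The macrophage list summed to 1926 CPM in R162, 1240 in R163, 3082 in R164 and 3267 in R165, and the neutrophil list to 923, 588, 1190 and 1693 CPM. apoeb, a lipid carrier of macrophages, had 33.5, 65.8, 124 and 421 CPM, and was lowest in R162 instead. grn1, a granulin, also went against the list, with 111, 36.9, 202 and 0.601 CPM, lowest in R165. nkl.2, an NK-lysin of cytotoxic cells, had 9.07 CPM in R163 against 368, 271 and 350 CPM in R162, R164 and R165.

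Some programmes kept close to the spread of genes at large. Median SDs were 0.51 for 37 cell cycle genes, 0.50 for 21 glycolysis genes, 0.56 for 28 heat shock genes, 0.57 for 29 interferon genes and 0.58 for 36 circadian genes, beside 0.54 for all genes. pcna, the replication clamp, had 194 ± 35.3 CPM (SD, n = 4), highest in R163 at 238 CPM. isg15, an interferon-induced ubiquitin-like protein, had 695, 685, 890 and 638 CPM. eno1a, a glycolytic enolase, had 275, 281, 340 and 262 CPM. Over 4-fold were 5 of 37 cell cycle, 5 of 21 glycolysis, 7 of 28 heat shock, 5 of 29 interferon and 4 of 36 circadian genes, where 22.1% of all genes were. With total counts as library size, the median SDs of these lists were 0.68, 0.60, 0.88, 0.82 and 0.82 in the same order, beside 0.71 for all genes. ddit4, a stress and hypoxia gene, had 356 CPM in R162 against 25.4, 76.7 and 71.0 CPM in R163 to R165.

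**Figure D4:**
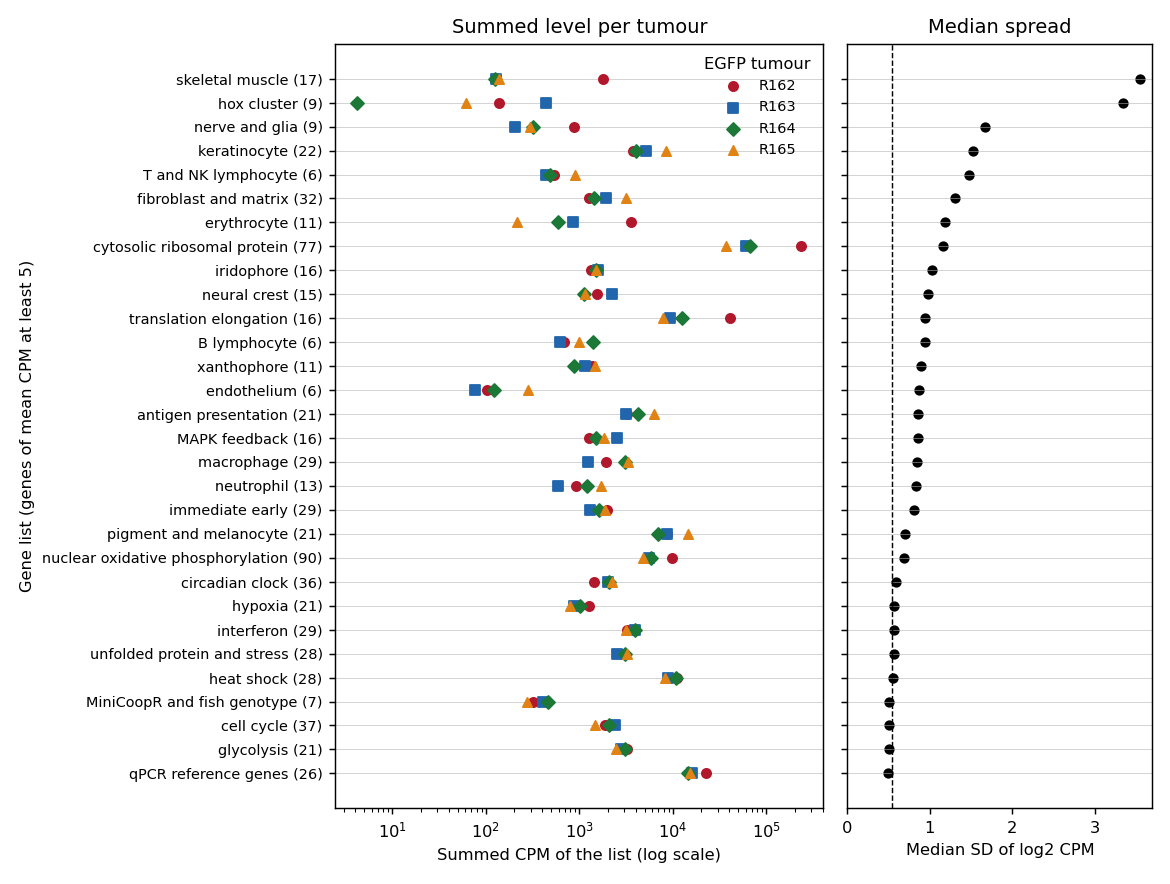
Left, summed CPM of all rows of each gene list (log x axis) in the 4 EGFP tumours; right, median SD of log2 CPM over the list's genes with a mean of at least 5 CPM (their number in parentheses), with the median of all genes, 0.54, as a dashed line. The muscle (3.55) and hox (3.34) lists lie furthest right through genes that passed the level filter in few tumours (muscle 1.89 over 2 genes without R162), and R162 stands out in the muscle, erythrocyte, ribosomal protein and translation lists.

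Whether wide and narrow genes keep their spread was read in tumours that had not been used to choose them. The 100 most variable genes had a median SD of 3.54 in the 4 EGFP tumours, which chose them, and of 1.96 in the 5 R860Q tumours, where 82 were in the top 10% of all genes by SD. The 100 most stable genes had a median SD of 0.0758 in EGFP tumours and of 0.33 in R860Q tumours, where 19 were in the bottom 10% and 1 in the top 10%. All 11474 genes had median SDs of 0.54 in EGFP and 0.45 in R860Q tumours. In the R860Q tumours 87 of the most variable genes and 1 of the most stable differed by more than 4-fold, where 16.6% of all genes did. Across genes, Spearman's rho between the SDs of the 4 EGFP and the 5 R860Q tumours was 0.43, as a description over genes that share libraries. Single genes differed in this: ckma had an SD of 3.55 in EGFP and 4.26 in R860Q tumours, whereas mhc1uba had 4.33 and 1.06, and b2m, even in EGFP tumours (0.13), had 0.71 in R860Q tumours. The ribosomal protein genes had a median SD of 1.16 in EGFP and 0.33 in R860Q tumours, and their share of counts in R860Q tumours was 7.96% to 10.02%.

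**Figure D5:**
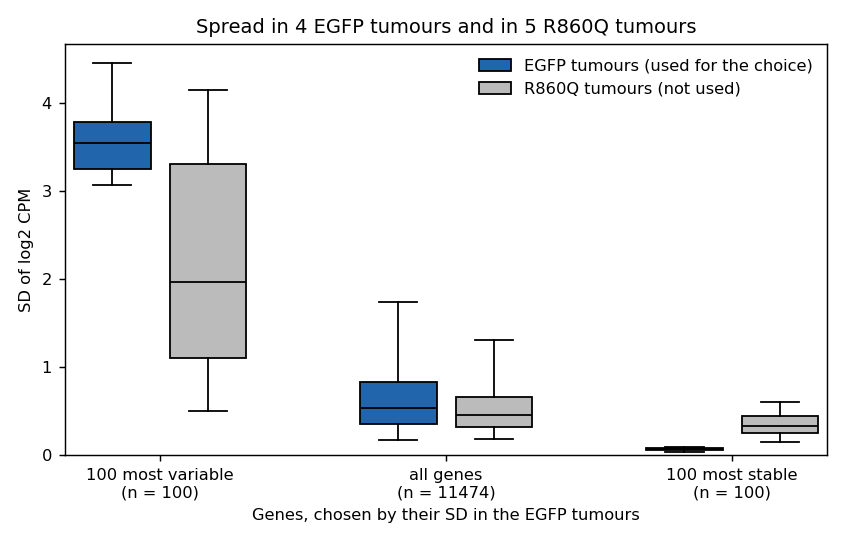
SD of log2 CPM (y axis) in the 4 EGFP tumours (blue) and in the 5 R860Q tumours (grey) for the 100 most variable, all 11474 and the 100 most stable genes, chosen in the EGFP tumours. Boxes show median and quartiles, and whiskers the 5th and 95th percentiles over genes; the median of the most variable genes is 3.54 in EGFP and 1.96 in R860Q tumours.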

How the data were processed

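The tables as deposited hold whole-number read counts for each gene symbol, without any scaling, in 1 table per tumour. The submitters' processing notes name the aligner Bowtie, the counter HTSeq and the build danRer10 (GRCz10); versions, annotation and strand setting are not given in the sources used here. Overlapping or antisense genes may therefore share reads, as may near-identical copies. The unnamed first line of each table was left out. From the counts of all 9 tumours, low rows were removed with filterByExpr (minimum count 10, minimum total 15) and TMM factors computed in edgeR 4.0.16 (R 4.3.3). CPM use the TMM-scaled library, and log2 CPM a prior count of 2. Spread is the SD of log2 CPM over the 4 EGFP tumours, for rows with a mean of at least 5 CPM. No groups were compared and no test was run. DESeq2 1.42.0 size factors served as an alternative. Biotypes come from symbols in NCBI RefSeq's table for GRCz12tu (92.0% of the 11474 genes matched a name), and none of its coordinates was used. The measure of spread was checked on simulated counts.

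The tumours, the 31 gene lists and the rules were chosen with earlier results of these data known. Named were the 20 most read protein-coding and 15 most read noncoding rows, the 20 most variable and 20 most stable genes, 6 genes above and 3 below the rest in each tumour, the reference and genotype lists, and in other lists the 3 most read and the 1 most variable gene. An allele that all 9 tumours share, and its gene, are not reported here. Levels per coding length were planned and not made, because no lengths were available in the tables used. Every pair of EGFP libraries differed by more than counting noise, with a chi-square of at least 64.1 per degree of freedom. Floors at 3 counts cover counting error only, as reads had no molecular identifiers.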

Additional observations from a re-analysis of the deposited data

Results flagged for a closer look

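Samples that lay far from the other 3 were sought by the gap to the nearest tumour over the whole range of log2 CPM, read against the 95% value of Dixon's test for 4 samples. Chance flags about 1 in 20 groups, and 694 of the 11474 genes (6.05%) passed, so single entries say little. The genes listed here come from the named genes. Some of those were named for a large SD or for lying above or below the rest in these same tumours. For them passing is not an independent result, and 6.05% is not their background. A value of 1.0 means that the other 3 values were tied. High in R162 were tnni2a.3 (1.0), pvalb2 (0.912), pvalb1 (0.903), pvalb4 (0.894), ckmb (0.886), slc25a5 (0.883), ednrba (0.838) and mylpfa (0.836). The summed skeletal muscle markers (0.959) and the share of 5S and 5.8S rRNA (0.843) were also high in R162. Low in R162 were ubc (0.910), dlx2a (0.872) and ntrk3a (0.869). High in R163 were hoxc10a (0.922), hoxc13a (0.869) and sox10 (0.845), and low in R163 were nkl.2 (0.917) and aste1a (0.883). High in R164 was b2m (0.948), at 1305 CPM against 1091 to 1102 CPM. High in R165 were col10a1a (0.918), epd (0.890), tyrp1b (0.867) and PKHD1L1_(1_of_many) (0.849).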

How the results depend on the processing

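No paired analysis was possible because the EGFP tumours (R162 to R165) and the R860Q tumours (R157 to R161) share no replicate number. The median SD of 0.54 was 0.71 with total counts as library size, 0.60 with a mean of at least 1 CPM and 0.60 with no filter. It ran from 0.44 to 0.56 as each tumour was left out, lowest without R162. Genes over 4-fold (2534) numbered 4597 at a mean of at least 1 CPM, 1202 at 20 CPM and 6667 with no filter, and 1492 to 2289 with a tumour left out. Genes under 1.5-fold (1551) numbered 636 with total counts, 826 at 20 CPM and 3022 with no filter, and 2542 to 3564 with a tumour left out, where fewer samples narrow the range by construction. Without small noncoding rows, the mean share of counts in the 100 most read rows was 30.1% instead of 48.9%, and the mean number of rows that held 50% of the counts was 535 instead of 167. With a tumour left out, these were 43.2% to 51.3% and 137 to 216 rows. Of the 100 most variable genes, 55 were shared by the ranking on the squared coefficient of variation, 77 by edgeR's dispersion, and 60 to 77 with a tumour left out, fewest without R162. Of the 100 most stable, 0 were shared under total counts, 97 by the squared coefficient of variation and 20 to 31 with a tumour left out. The median Pearson correlation of 0.793 ran from 0.682 to 0.793 with a tumour left out, lowest without R164. The 13142 rows at 1 CPM in all 4 tumours numbered 11612 to 14444 under the 9 alternatives. Total counts gave 3741 genes over 4-fold. The other normalisations, the prior counts of 0.5 and 5 and thinning to the shallowest library gave 2420 to 2593 genes over 4-fold. Medians of gene lists moved by more than their leave-one-out spread in 18 of 30 lists under total counts. They moved in 16 lists without R162, 11 without R163, 6 without R164 and 8 without R165. The number of lists that stayed the same under every alternative was 0. The leave-one-out medians were judged by their own spread, which makes some move nearly certain, so this 0 says little. Under total counts, 20 of 221 named genes moved by more than 1 SD. Levels per coding length were not run. The cause of the moves under total counts was not tested. Leaving out tumours for the shares of counts, the number of rows and the correlation was chosen after seeing the data. Rows under 3 counts were not separable from 0 at this depth.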
